A study of Mus musculus with 12 samples.

Results

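The genes described here encode the proteins of the cytosolic ribosome, measured in mouse liver on a whole-transcript gene array. Membership was by symbol, under a rule set with earlier results of these data known. The rule took probe sets annotated to exactly 1 gene. The symbol had to begin with Rpl followed by a digit or p, or with Rps followed by a digit. Symbols marked as pseudogenes and the Rps6k kinases were left out. Where a gene had several such probe sets, the one with the strongest mean signal across all 12 arrays stood for it. The rule found 68 genes among 22180 genes with a symbol of their own. They comprise 32 genes of the large subunit, 22 of the small subunit, 3 of the acidic stalk, 6 paralogs of subunit genes, 4 copies (Rps23rg1, Rpl6l, Rpl32l and Rps4l) and Rps19bp1, which encodes a protein that binds Rps19 and is not itself a subunit. RefSeq lists 66 of the 68 as protein coding and Rpl6l and Rps4l as pseudogenes. A further 14 ribosomal protein symbols occurred only on probe sets shared by several genes and were not members.

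Livers came from male C57BL6/J mice aged 8 to 10 weeks that had received an Ad5 adenovirus in the tail vein. In 6 samples (GFP replicates 1 to 6) the virus, Ad-GFP, carried green fluorescent protein, and in the other 6 (hApoF replicates 7 to 12) Ad-hApoF carried human apolipoprotein F, a secreted protein found on lipoproteins. All mice were killed 4 days after injection, at 3 pm, after 6 h without food. The comparison asks what human ApoF, made from the virus instead of GFP, changes in the liver's own transcripts. Both groups carried a virus, livers without virus were not analysed here, the labels give no viral dose, and the mouse probe sets do not measure the human transgene. The labels do not say array by array that each came from its own mouse, so the spread behind each p-value is that among these samples and may be technical.

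A cytosolic ribosome is built from a small subunit, which decodes the messenger RNA, and a large subunit, which joins the amino acids and carries a flexible stalk that recruits elongation factors. The subunits are assembled in the nucleolus on ribosomal RNA made by RNA polymerase I, with the help of many biogenesis factors. Messenger RNAs of ribosomal proteins typically begin with a C followed by a run of C and U, the 5′ terminal oligopyrimidine (TOP) tract, through which the kinase mTOR and the protein Larp1 set their translation and stability. In liver, a tissue that secretes large amounts of plasma protein, the set is active in fed and in regenerating tissue.

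A few sequences around annotated starts are printed to show where runs of C or T lie in them and that not every gene has one. Promoter windows in the RefSeq table (GRCm38.p6) were found for 53 of the 68 genes, with 62 windows in all. Each sequence below runs 5′ to 3′ on the transcript's strand, from 10 bases before the annotated start to 20 bases from it, and capitals mark the longest unbroken run of C or T. The windows are those of Rpl28 (chr7:4792955-4792984, plus strand), Rpl15 (chr14:18270967-18270996, minus), Rpl7a (chr2:26910797-26910826, plus), Rps6 (chr4:86857348-86857377, minus), Rps27 (chr3:90213629-90213658, minus), Rpl41 (chr10:128549149-128549178, minus) and Rps23rg1 (chr8:3567988-3568017, plus).
Rpl28: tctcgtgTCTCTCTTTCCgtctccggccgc
Rpl15: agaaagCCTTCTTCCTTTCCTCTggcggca
Rpl7a: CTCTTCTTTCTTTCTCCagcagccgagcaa
Rps6: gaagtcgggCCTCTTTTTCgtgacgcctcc
Rps27: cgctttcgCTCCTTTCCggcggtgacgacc
Rpl41: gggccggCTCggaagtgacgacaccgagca
Rps23rg1: gcagagagTCTTTCTCTCaccccagataaa

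A run of at least 6 C or T anywhere in such a window is not by itself a TOP tract, which begins at the first base of the message. Such a run was present in 34 of the 62 windows (54.8%), against 28.7% of all 32851 windows in the table. On the opposite strand the share was 12.9%, against 32.0% of all windows. Rpl41 had no such run beside its annotated start, where the longest was 3 bases. Within the whole 300 bases, the ETS factor motif CCGGAAG was found on either strand in 35.5% of the 62 windows and in 8.86% of all windows, and the YY1 motif AAGATGGC in 4.84% and 2.75%. The last letters of the ETS motif, AAG, are the first of the YY1 motif, so a match of each can share these bases. The annotated starts were not measured in these livers, so a match is only a description of the window.

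Ribosomal protein genes were, on the whole, slightly lower in livers given hApoF than in livers given GFP virus. The log2 difference, hApoF minus GFP, lay below 0 in 52 of the 68 genes (76.5%), against 42.3% of all genes, and its median was -0.08, which is 5.67% lower, against a median of 0.03 over all genes. The values of Rpl9, Rplp0 and Rps29, counted below 0, round to 0.00. Few single genes passed the test. With limma and Benjamini-Hochberg adjustment over all genes, 4 of the 68 (5.88%) were lower at an adjusted p under 0.05, close to the 4.80% of all genes that were called lower, and 0 were higher, where 2.11% of all genes were. At an unadjusted limma p under 0.05, 14 of the 68 were lower, against 2467 of all 22180 genes (11.1%). At that threshold 0 of the 68 were higher, against 2249 of all 22180 genes. Without the 6 paralogs, the 4 copies and Rps19bp1, 46 of the remaining 57 genes lay below 0, with a median of -0.08 and 3 calls. Over all genes, 6.91% were called in either direction. In bulk tissue, fewer cells of a type and less RNA per cell cannot be told apart. The plot of all members shows their order and intervals.

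**Figure D1:**
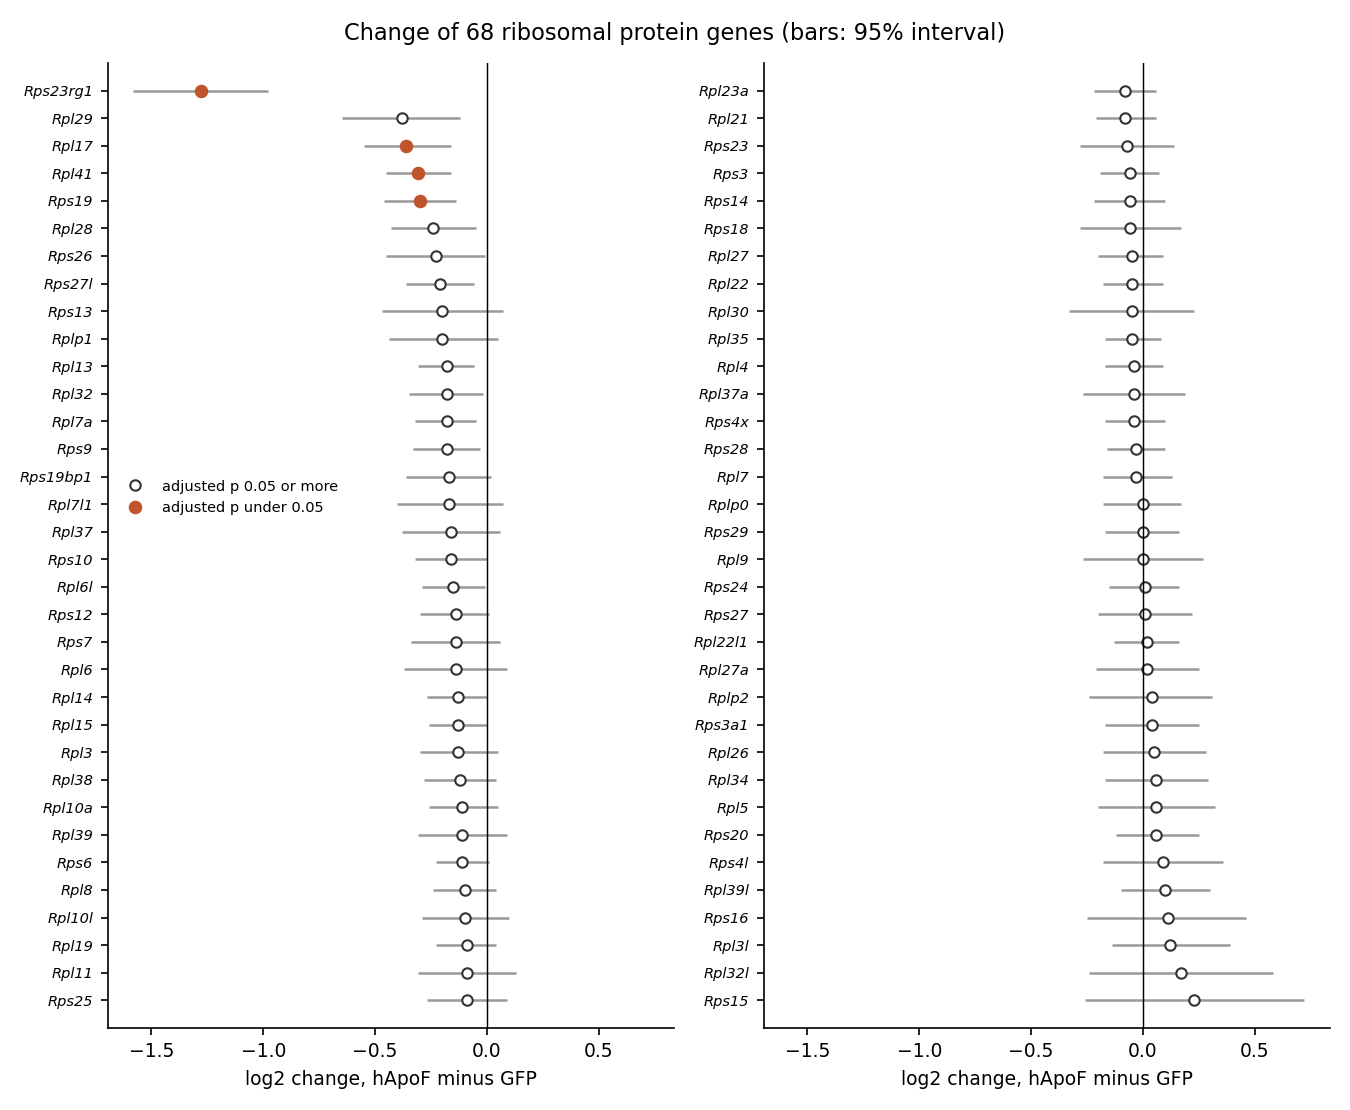
Log2 change (hApoF minus GFP, x axis) of each of the 68 genes in 2 columns, ordered from the lowest to the highest, with the 95% interval from limma as a bar and filled points for adjusted p under 0.05. The changes run from -1.28 (Rps23rg1) to 0.23 (Rps15), 52 lie below 0, and the 4 filled points are all below 0.

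The shift was seen array by array. The mean log2 level of the 68 genes was lowest at 7.39, with a median of 7.44 and a highest value of 7.45, in GFP livers, and ran from 7.29 over a median of 7.34 to 7.37 in hApoF livers. The groups did not overlap in this mean, although the difference between the group means, 7.43 ± 0.02 (SD, n = 6) and 7.34 ± 0.03 (n = 6), was only -0.10, computed from unrounded values. GFP replicate 5 was the lowest GFP array and hApoF replicate 12 the lowest of all. Counted by gene, 19 to 30 of the 68 genes lay below their own 12-array median in each GFP array and 43 to 48 in each hApoF array. The mean gives no test, since the genes were chosen with earlier results of these data known.

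Genes with a strong probe set signal showed the difference most regularly. Probe sets differ in their probes as well as in transcript amount, so the signal is used here only to find other genes measured in the same range. Of the 31 members with a mean log2 value of 8 or more (a window border chosen after the values were seen), 29 lay below 0, with a median of -0.11, whereas 49.8% of the 2970 other genes in that range lay below 0, with a median of 0.00. The other 37 members had 23 below 0 and a median of -0.05, against 41.1% and 0.03 for other genes below 8. In steps of 1 log2 unit, all 11 members between 9 and 10, all 7 between 10 and 11 and all 4 between 11 and 12 lay below 0, with medians of -0.11, -0.18 and -0.09. The corresponding medians of other genes were 0.01, 0.03 and 0.06. Between 4 and 5, by contrast, only 2 of 7 members lay below 0 (median 0.04), as did 28.7% of other genes (median 0.07).

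**Figure D2:**
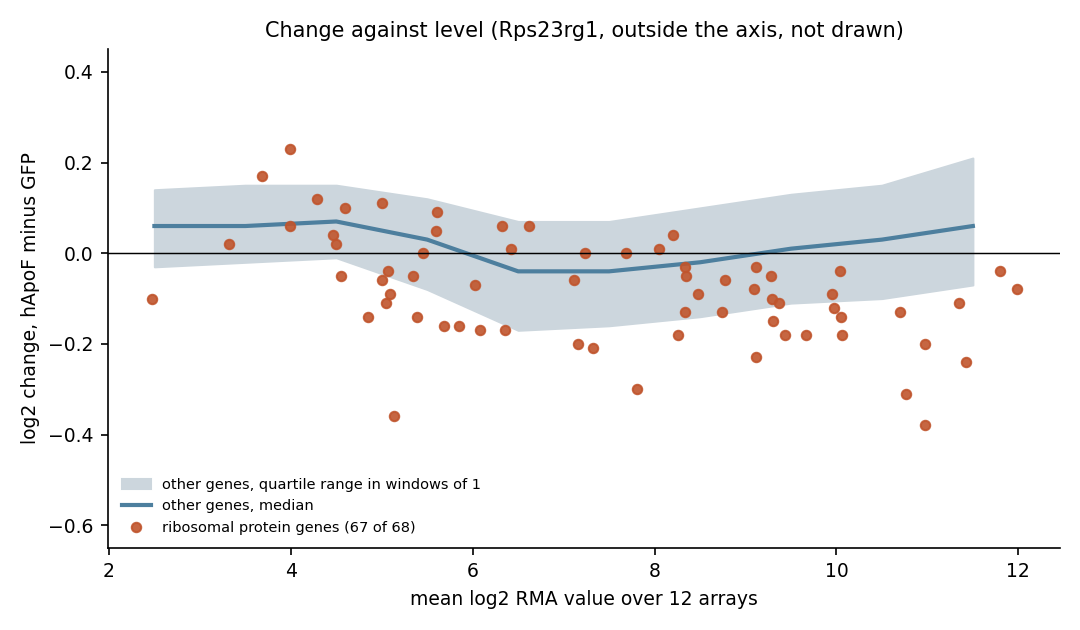
Log2 change (y axis) of 67 of the 68 genes against their mean log2 RMA value over the 12 arrays (x axis); Rps23rg1 at -1.28 is outside the axis. The line joins the medians of other genes in windows of 1 log2 unit and the band shows their quartile range. The points at 9 and above all lie below 0, and the medians of the windows from 9 to 12 are between 0.01 and 0.06.

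Set beside the genes within 0.5 log2 units of its own level, a member lay below their median in 54 of 68 cases, and the median distance over all 68 was -0.11. For 33 of the 68 (48.5%) fewer than 25% of the genes of the same level had a lower value. Between the 10th and 90th percentile of the members' levels (4.49 to 10.72), 44 of 54 members lay below 0 with a median of -0.09, and 48.3% of 14339 other genes did, with a median of 0.01. Calls were not more frequent than in genes of the same range. Between these percentiles, 5.56% of the members and 7.07% of the other genes were called lower. At a level of 8 or more, 3.23% of the 31 members and 7.34% of the 2970 other genes were called lower.

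In the arrays, the 31 stronger members had a mean of 9.68 to 9.74 in GFP livers and 9.55 to 9.63 in hApoF livers, while the 2970 other genes had 9.11 to 9.17 in both. The difference between these means was 0.54 to 0.59 in GFP arrays and 0.40 to 0.51 in hApoF arrays. GFP replicate 4, whose overall spread of values resembled that of hApoF arrays (upper quartile 6.673, with 6.668 to 6.726 in hApoF and 6.734 to 6.814 in the other GFP arrays), had a mean of 9.70 for the stronger members, within the GFP range.

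**Figure D3:**
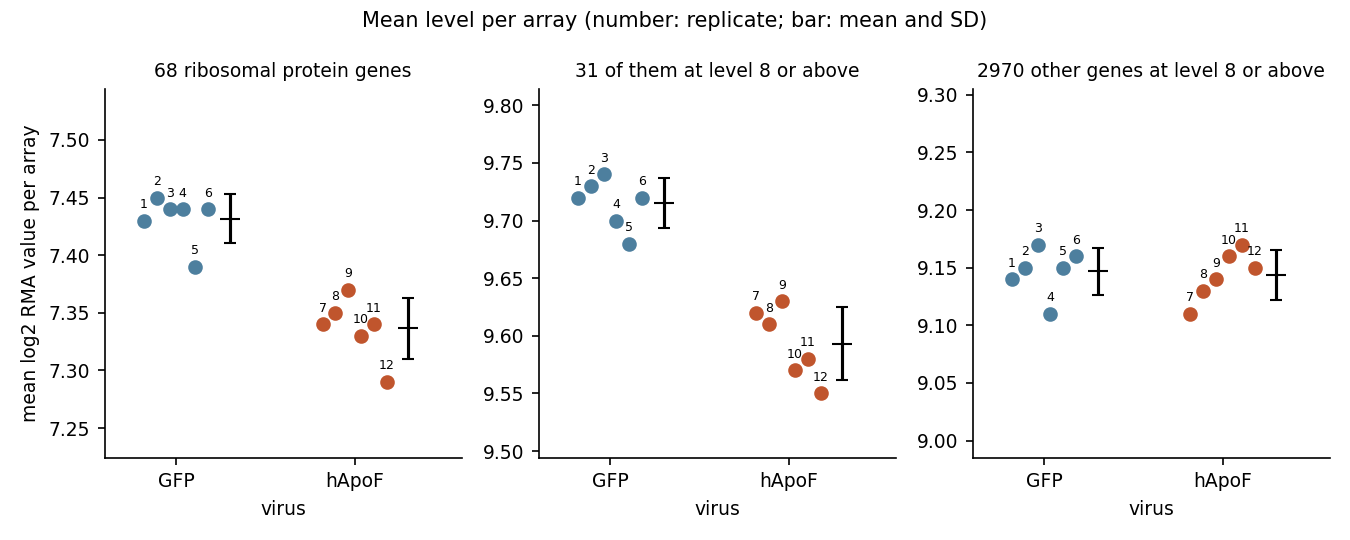
Mean log2 RMA value per array (y axis, of equal height in each panel) for the 68 ribosomal protein genes, the 31 with a mean of 8 or more, and 2970 other genes in the same range; numbers are replicates and bars the group mean and SD (n = 6). In both panels of ribosomal protein genes every hApoF array lies below every GFP array, and in the panel of other genes the groups cover the same range, 9.11 to 9.17.

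The largest single change was that of Rps23rg1, a retroposed copy of the small subunit gene Rps23. Its level was lowest at 7.14, with a median of 7.41 and a highest value of 7.52, in GFP livers, and ran from 5.63 over a median of 6.03 to 6.68 in hApoF livers. The groups did not overlap. The log2 change was -1.28 (standard error, SE, 0.14, 95% interval -1.58 to -0.98, limma adjusted p = 4.4e-05), which leaves 41.3% of the GFP level, and it passed in all 12 fits that left out 1 array. Rps23 itself, a protein of the decoding centre, had levels of 5.74 to 6.31 in GFP livers and 5.79 to 6.16 in hApoF livers, with a change of -0.07 (95% interval -0.28 to 0.14, limma adjusted p = 0.737). The change of the copy was lower than that of its parent by 1.21 log2 units (exact permutation p = 0.0022, 0.019 after adjustment over 9 copy and parent pairs, two-sided); 0.0022 is the smallest p that 6 against 6 arrays can give. Each gene of this pair was read from 1 probe set, and that of the parent Rps23 had the weaker 12-array mean (6.03, against 6.73 for Rps23rg1). How well that probe set reports the Rps23 message was not tested. In the RefSeq gene table Rps23rg1 overlaps the entry Rps23-ps2, whose signal cannot be told apart from it here. Of its flanking genes, Camsap3, which encodes a microtubule minus-end binding protein, was lower by 0.35 (limma adjusted p = 0.037) and Pnpla6, a phospholipase, had a change of -0.08 (adjusted p = 0.63); both were named after their values were seen.

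Among subunit genes, Rpl41, Rps19 and Rpl17 fell. Rpl41 encodes the smallest protein of the large subunit. In GFP livers its levels ran from 10.89 over a median of 10.91 to 11.03, and in hApoF livers from 10.38 over 10.66 to 10.71, so that no hApoF array reached a GFP array. Its change was -0.31 (SE 0.07, limma adjusted p = 0.014), or 19.1% lower, and it held in each of the 12 omissions of 1 array. Of its 5 probe sets, 4 gave changes between -0.34 and -0.28 and the dimmest gave 0.07, and the adjusted p was 0.056 when the 5 were averaged.

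Rps19, a small subunit protein whose human counterpart is mutated in Diamond-Blackfan anaemia, had levels from 7.86 over a median of 7.95 to 8.10 in GFP livers and from 7.49 over 7.65 to 7.91 in hApoF livers. A single hApoF array, replicate 10, lay within the GFP range. The change was -0.30 (SE 0.08, limma adjusted p = 0.028). It lost its call in 6 of the 12 omissions (leaving out GFP 2, 3 or 6 or hApoF 8, 9 or 12, with adjusted p up to 0.07). The call was also lost after a further quantile normalization, with averaged probe sets, and without GFP 4 and hApoF 12 together (up to 0.063). Of the 3 probe sets of Rps19, 2 held identical values, and the average counted both. The remaining probe set, of weaker signal, gave -0.10 (limma adjusted p = 0.47 when tested by itself).

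Rpl17, a large subunit protein that lines the exit tunnel, ran from 5.20 over 5.29 to 5.51 in GFP livers and from 4.68 over 4.94 to 5.23 in hApoF livers. Here hApoF replicate 12 alone reached the GFP range. Its change was -0.36 (SE 0.09, limma adjusted p = 0.029), and the call was lost in 7 of 12 omissions (leaving out GFP 1, 2, 3 or 6 or hApoF 7, 9 or 10, with adjusted p up to 0.072). When GFP 2, 3 or 6 or hApoF 9 was left out, the number of called members was 2, Rpl41 and Rps23rg1.

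**Figure D4:**
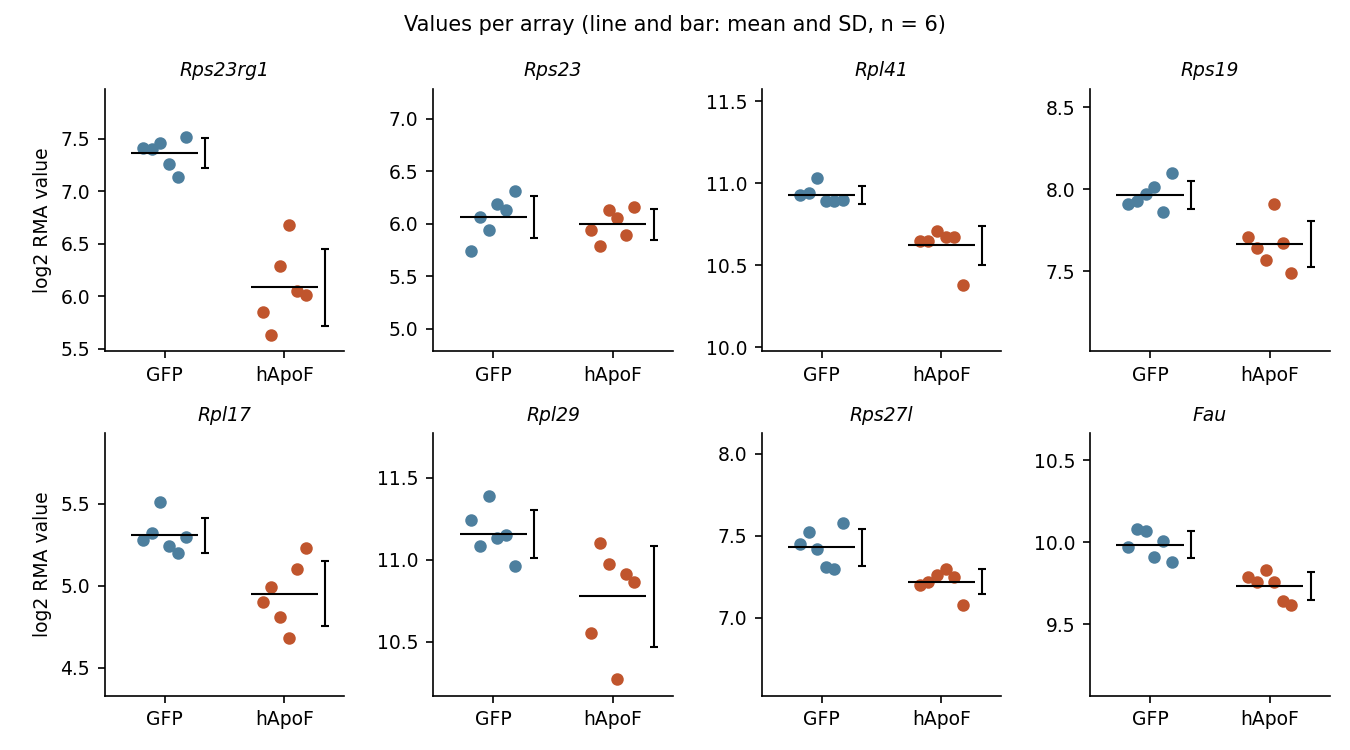
Log2 RMA values per array (y axis) for 8 genes in GFP and hApoF livers, with the group mean as a line and the SD as a bar (n = 6); the axes of Rps23rg1 and Rps23 cover a wider range than those of the other genes. Rps23rg1, Rpl41 and Fau show no overlap between groups, and Rps23 shows full overlap.

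Several further large subunit genes had negative values that did not pass in the 12-array fit by gene. Rpl29 had the lowest value of a subunit gene: its levels ran from 10.96 over 11.14 to 11.39 in GFP livers and from 10.27 over 10.88 to 11.10 in hApoF livers. The change was -0.38 (SE 0.12, limma adjusted p = 0.081), and its second probe set, of weaker signal, gave -0.45 and passed when each probe set was tested by itself (limma adjusted p = 0.012). The gene passed without hApoF 8 (limma adjusted p = 0.046), after a further quantile normalization (0.04), among genes above the median level (0.042) and with averaged probe sets (0.026). Rpl28 had a median of 11.54 in GFP livers (lowest 11.46) and of 11.31 in hApoF livers (highest 11.56), a change of -0.24 (limma adjusted p = 0.123). Rpl13 and Rpl7a had no overlap between groups, with 9.72 to 9.81 against 9.48 to 9.68 and 10.09 to 10.20 against 9.78 to 10.06, and each had a change of -0.18 (limma adjusted p = 0.08 and 0.105).

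The genes with the strongest signals, Rpl21 and Rpl4, had values close to 0. Rpl21 gave -0.08 (95% interval -0.21 to 0.06) and Rpl4, another protein of the exit tunnel, -0.04 (-0.17 to 0.09). Over the 32 large subunit genes, 28 lay below 0, the median was -0.10 and 2 were called lower.

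In the small subunit, 16 of 22 genes lay below 0, the median was -0.06 and 1 (Rps19) was called. Rps6, the substrate of the S6 kinases downstream of mTOR, had non-overlapping groups, from 11.36 over 11.41 to 11.45 in GFP livers and from 11.23 over 11.29 to 11.35 in hApoF livers. Its change was only -0.11 (SE 0.06, limma adjusted p = 0.283). Rps16, which lies near the decoding site, and Rps15, which lies in the head of the subunit, had the highest small subunit values, 0.11 (95% interval -0.25 to 0.46) and 0.23 (-0.26 to 0.72). For Rps15 the spread among arrays was wide, 3.33 to 4.51 in GFP and 3.71 to 4.81 in hApoF livers.

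Counting all members, the groups did not overlap for 5 genes, Rps23rg1, Rpl41, Rpl13, Rpl7a and Rps6, each lower in hApoF livers. That is 5 of 68, where 3.49% of all genes were lower without overlap and 4.98% did not overlap in either direction.

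The stalk genes showed no change that passed. Rplp0, which anchors the stalk and is often used as a reference gene in quantitative PCR, ran from 7.09 over 7.22 to 7.38 in GFP and from 7.06 over 7.23 to 7.46 in hApoF livers, with a change of 0.00 (95% interval -0.18 to 0.17) whose sign turned under some settings. Its partners had values of -0.20 for Rplp1 (95% interval -0.44 to 0.05) and 0.04 for Rplp2 (-0.24 to 0.31). The 12-array mean of Rplp2, 4.46, lay below the array medians of 4.927 to 5.035. Rpl5 and Rpl11, which travel with 5S ribosomal RNA and bind the p53 ligase Mdm2 when free of ribosomes, had changes of 0.06 (95% interval -0.20 to 0.32) and -0.09 (-0.31 to 0.13). None of these 5 genes had an unadjusted limma p under 0.05.

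Paralogs of subunit genes were mixed, with 3 of 6 below 0 and 0 called. Rps27l, a paralog of Rps27 known as a p53 target, ran from 7.30 over 7.43 to 7.58 in GFP livers and from 7.08 over 7.23 to 7.30 in hApoF livers, so that the groups met at 7.30. Its change was -0.21 (SE 0.07, limma adjusted p = 0.08), against 0.01 for Rps27, and the difference between the pair did not pass after adjustment over the 9 pairs (exact permutation p = 0.048, adjusted 0.21). Rpl7l1, a biogenesis factor related to Rpl7, had -0.17 and Rpl22l1, which can take the place of Rpl22, 0.02, while Rpl3l, the muscle form of Rpl3, had 0.12. Rpl39l and Rpl10l, forms best known from testis, had 0.10 and -0.10. The signal of Rpl10l was 2.28 to 2.81 in GFP livers and 2.31 to 2.50 in hApoF livers, below the array lower quartiles of 3.659 to 3.798. Rpl22l1 also lay below these quartiles, at 3.26 to 3.37 in GFP and 3.21 to 3.54 in hApoF livers. The 12-array means of Rpl3l (4.29), Rpl39l (4.60) and the copy Rpl32l (3.68) were below the array medians of 4.927 to 5.035. Of the copies other than Rps23rg1, Rpl6l had -0.15, Rps4l 0.09 and Rpl32l 0.17, none past the test, and the Rps19-binding Rps19bp1 had -0.17 (limma adjusted p = 0.295). Of the 9 pairs, Rps23rg1 with Rps23 alone differed at an adjusted p under 0.05.

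Of 2 measured subunit proteins whose symbols fall outside the rule, 1 fell. Fau, which encodes a ubiquitin-like protein fused to the small subunit protein eS30, ran from 9.88 over 9.99 to 10.08 in GFP livers and from 9.62 over 9.76 to 9.83 in hApoF livers, with no overlap. It fell by 0.25 (SE 0.07, limma adjusted p = 0.032), a call lost in 7 of 12 omissions (leaving out GFP 1, 2, 3 or 5 or hApoF 10, 11 or 12, with adjusted p up to 0.081) and when its probe sets were averaged (0.24). Rpsa, a small subunit protein also known as the laminin receptor, had -0.17 (limma adjusted p = 0.2).

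Genes that build ribosomes were lower in part. Of 40 measured biogenesis genes 5 fell (12.5%, against 4.80% of all genes), 0 rose (against 2.11%) and 35 did not pass, and the median was -0.14; 1 rose without GFP 4 or without hApoF 8. These genes had mean levels of 5.49 to 8.75. In steps of 1 log2 unit from 5 to 9, 5.93% to 9.62% of genes outside the ribosomal protein set were called lower, with medians of -0.04 to 0.03. The share of 12.5% is thus closer to genes of the same range than to all genes, and the difference was not tested. Polr1a, the largest subunit of RNA polymerase I, ran from 7.87 to 8.34 in GFP and from 7.52 to 7.75 in hApoF livers and fell by 0.45 (SE 0.09, limma adjusted p = 0.005). Nop58, a core protein of box C/D snoRNA particles, fell by 0.47 (SE 0.09), Pwp2, of the small subunit processome, by 0.43 (SE 0.09), Nol6 of the same particle by 0.30 (SE 0.08) and Pwp1, a regulator of ribosomal RNA synthesis, by 0.24. Pwp1, named after its value was seen, lost its call in 10 of 12 omissions (all but GFP 4 and hApoF 9, adjusted p up to 0.1) and after a further quantile normalization (0.14). The call of Nol6 was lost in 9 of 12 omissions (without GFP 1, 2, 3, 5 or 6 or hApoF 7, 8, 10 or 11, adjusted p up to 0.083) and after the same normalization (0.09). The count of fallers was 3 without GFP 1, 2, 3 or 6 or hApoF 7, 8 or 10, and 9 without GFP 4 and hApoF 12 together. Ncl and Npm1, abundant nucleolar proteins named after their values were seen, had changes of -0.02 and 0.04.

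A list of translation factors and cofactors, drawn up as genes with TOP messages, had 3 of 18 lower, 0 higher and 15 not past the test. The median was -0.06. The annotated starts of these genes were not examined here. The share lower was 16.7%, against 4.80% of all genes lower and 2.11% higher, and 1 was higher without hApoF 7. Mean levels in this list ran from 6.82 to 12.33. In steps of 1 log2 unit from 6 to 12, 3.14% to 9.62% of genes outside the ribosomal protein set were called lower. Eif3k and Eif3l, subunits of the initiation factor that binds the small subunit, fell by 0.43 (SE 0.07, limma adjusted p = 0.00085) and 0.36 (SE 0.06), and the histone chaperone gene Nap1l1 by 0.55 (SE 0.10). All 3 kept their calls in every omission of 1 array. The elongation factors Eef1a1 and Eef2 had 0.00 and 0.05. Of 11 host genes of snoRNAs, 2 fell (18.2%, against 4.80% of all genes), 0 rose (against 2.11%) and 9 did not pass, with a median of -0.09: Snhg1 fell by 0.50, a call lost in 8 omissions (without GFP 1, 2, 3 or 6 or hApoF 7, 8, 9 or 11, adjusted p up to 0.1), and Snhg15 by 0.45 (limma adjusted p = 0.019). The number of hosts that fell was 1 without GFP 1, 3 or 6, without hApoF 7, 8, 9 or 11 and after the further quantile normalization, which also gave 1 that rose. Host genes had mean levels of 5.09 to 9.59. In the steps from 5 to 10, 5.93% to 9.62% of genes outside the ribosomal protein set were called lower. For neither list was the share tested against genes of the same level.

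The last list held 22 measured genes of mTOR signalling and of the translation regulators around it, with the transcription factor genes Myc and Max. Of these, 2 fell (9.09%, against 4.80% of all genes), 1 rose (against 2.11%) and 19 did not pass, with a median of -0.08. Their mean levels ran from 5.12 to 10.08. In steps of 1 log2 unit from 5 to 11, 5.93% to 9.62% of genes outside the ribosomal protein set were called lower. The share of 9.09% lies within that range. The faller Mlst8, a subunit of both mTOR complexes, was lower by 0.45 (SE 0.10, limma adjusted p = 0.014). The sestrins, stress-induced inhibitors of mTOR complex 1, had different signs: Sesn2 fell by 0.45 (limma adjusted p = 0.023, lost without GFP 2, 3 or 6 or hApoF 12, up to 0.06), Sesn1 rose by 0.46 (limma adjusted p = 0.006), and Sesn3, named after its value was seen, had -0.04. Without GFP 2, 3 or 6 the number that fell was 1, and without GFP 4 and hApoF 12 together, or among genes above the median level, 2 rose.

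**Figure D5:**
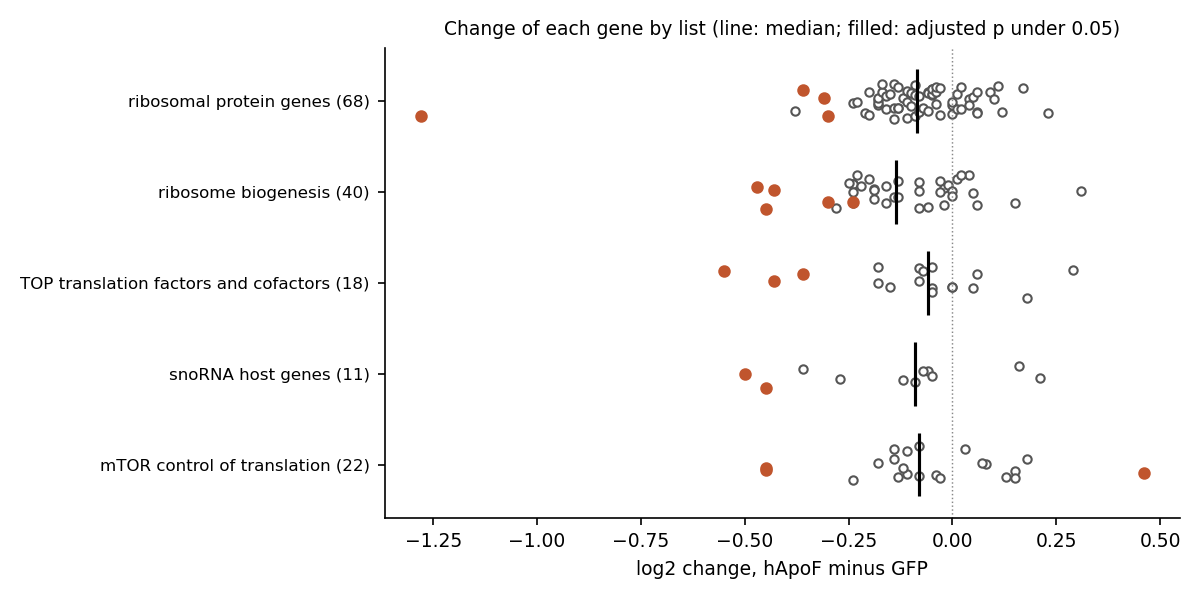
Log2 change (hApoF minus GFP, x axis) of each measured gene in the ribosomal protein set and 4 related lists (number of genes in brackets), with the list median as a line and filled points for limma adjusted p under 0.05; the vertical spread within a list has no meaning. All medians lie below 0, from -0.14 to -0.06, and the only filled point above 0 is Sesn1 (0.46). In the mTOR list, Mlst8 and Sesn2 are both filled and have the same change, -0.45.

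Markers of other cells in these livers also differed between groups. Over all genes, 4.80% were called lower and 2.11% higher. All 6 measured proliferation markers fell, and their mean level was 7.05 to 7.73 in GFP and 5.31 to 6.42 in hApoF livers. Among GFP arrays, replicate 4 was lowest in these markers (7.05) with a ribosomal protein mean of 7.44, and replicate 5, next lowest (7.26), had the lowest GFP mean of 7.39. Among hApoF arrays, replicate 12 was lowest in both (5.31 and 7.29), and replicate 10, highest in these markers (6.42), had a mean of 7.33. Endothelial markers had 2 of 9 higher (list mean 8.00 to 8.47 in GFP and 8.30 to 8.65 in hApoF livers), Kupffer cell and macrophage markers 3 of 11 (6.24 to 7.31 and 6.72 to 7.50), stellate cell and fibroblast markers 2 of 9 (7.11 to 7.49 and 7.28 to 7.60) and neutrophil markers 2 of 7 (4.23 to 4.56 and 4.40 to 4.93). None of 14 lymphocyte and natural killer cell markers (4.84 to 5.17 and 4.91 to 5.21), 5 bile duct markers (4.77 to 4.99 and 4.75 to 5.03), 10 hepatocyte markers (11.57 to 11.73 and 11.66 to 11.85) or the 1 measured erythroid marker passed with limma, although unadjusted p lay under 0.05 for 4, 2, 3 and 0 of them. The part of these cells in the ribosomal protein values was not tested. The hepatocyte marker mean lay above the upper quartile of every array, as did the endothelial mean and the stellate cell and fibroblast mean. It was the highest of these list means in every array.

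The probe sets limit how far single genes can be told apart. Ribosomal protein genes have many processed pseudogenes of nearly the same sequence, and array probes may bind these as well. The 68 genes had 108 probe sets, of which 10, for Rpl23a, Rps12 and Rps19, shared all values with another probe set of the same gene. Of the 24 genes with several probe sets, 9 (Rpl3, Rpl35, Rpl41, Rplp0, Rps18, Rps20, Rps26, Rps3a1 and Rps9) had probe sets on both sides of 0. The 15 genes whose symbols mark them as ribosomal protein pseudogenes had a median of -0.01, with 8 below 0 and 0 called (1 had an unadjusted limma p under 0.05).

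Of the 53 members in the promoter table, 32 had a C or T run of at least 6 in a window. Each window ran from 10 bases before an annotated start to 20 bases from it, and the run could lie anywhere in it. These 32 had a median change of -0.11 (24 below 0), and the 21 without such a run -0.05 (15 below 0). The difference was not tested. The 15 members that are not in that table had a median of -0.08.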

How the data were processed

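The deposited table gives log2 values for 35145 probe sets on 12 arrays. Per the submitters' processing notes the authors used oligo and RMA (background correction, quantile normalization and summary of probes). Versions and settings: not given in the sources used here. Array medians were 4.927 to 5.035 and correlations between arrays 0.982 to 0.993. The number of arrays limits precision.

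Of the probe sets, 23521 carried 1 symbol in the supplied platform annotation, which can be old, 1814 several and 9810 none. The probe set with the strongest mean of each of 22180 genes entered limma (version 3.58.1, R 4.3.3; lmFit, then eBayes) without covariates or filter, with Benjamini-Hochberg adjustment and a threshold of 0.05. The fit was tested on simulated data. Exact two-sided permutation used 924 assignments. Names and starts came from RefSeq (GRCm38.p6). Alternatives changed scaling, filter, probe set choice, eBayes settings and arrays.

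Members and lists were chosen with earlier results of these data known. Named genes passed, had one of the 5 largest rises or falls or the 3 strongest or weakest signals, belonged to the stalk, 5S partner, paralog or other-symbol lists, or had one of the 4 lowest p among those that passed in another list. Others were named after their values were seen.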

Additional observations from a re-analysis of the deposited data

Results flagged for a closer look

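In 48 groups of 6 arrays (the named members and their mean, in each virus group), 5 had an array far from the other 5 by Dixon's criterion at the 95% level, where chance flags about 5% of groups. Rpl41 was flagged in both groups: GFP replicate 3 was highest at 11.03, with the others between 10.89 and 10.94, and hApoF replicate 12 was lowest at 10.38, with the others between 10.65 and 10.71. Rplp1 was lowest in GFP replicate 1 at 10.79, where the others had 11.07 to 11.18. Rpl7l1 was highest in GFP replicate 2 at 6.50, where the others had 6.00 to 6.16. The mean of the 68 genes was lowest among GFP livers in replicate 5, at 7.39, with the others between 7.43 and 7.45.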

How the results depend on the processing

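No paired analysis was possible because the groups share no replicate numbers. The median change of the 68 genes stayed below 0 in all settings tried, at -0.11 for the 51 members above the median level of all genes and between -0.10 and -0.07 elsewhere, omissions of 1 array included. The number of members called lower was 4, with 7 when only genes above the median level were tested (11090 genes), 6 with trend and robust settings (4 shared), 3 with averaged probe sets (2 shared) and 2 to 4 when 1 array was left out. The share of all tested genes called in either direction also moved. It was 19.0% above the median level (67.2% of these lower), 8.77% with trend and robust settings (68.2% lower) and 6.75% with averaged probe sets (69.8% lower). With 1 array left out it was 4.58% to 8.96%. With each of the 108 probe sets tested by itself, 9 probe sets of 5 genes were lower. These included several of Rpl41 and 2 of Rps19 with identical values, so they are not 9 separate results. Of all 23521 probe sets tested in this way, 6.7% were called, 69.6% of these lower. The number called higher was 0 in every setting. Without GFP 4 and hApoF 12 the count was 4, of which 3 were shared with the 12-array fit, and 49 members lay below 0. A few values near 0, called in no setting, changed sign: Rplp0 was 0.07 after a further quantile normalization and 0.02 with averaged probe sets or without GFP 4 and hApoF 12, and -0.05 to 0.03 when 1 array was left out. Rpl22l1 was -0.04 and Rplp2 -0.02 after that normalization, and in single omissions they ranged from -0.03 to 0.04 and from -0.04 to 0.10. Rpl5 was -0.10 without GFP 4 and hApoF 12, and -0.04 to 0.11 in single omissions, and Rps4l -0.01 to 0.16. The cause was not tested. In biogenesis genes the number lower was 5, against 3 after the further quantile normalization, 9 with trend and robust settings and 10 among genes above the median level, and among translation factors 3, against 5 in the last setting. The further quantile normalization, trend and robust settings and the restriction to genes above the median level each called 1 biogenesis gene higher, and the last 2 of these also 1 translation factor. The set without paralogs, copies and Rps19bp1 was chosen after seeing the data and had 3 called lower and a median of -0.08.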

Other observations

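Probe sets annotated to several genes were named after none of them. Of these, 57 carried at least 1 ribosomal protein symbol of the rule. Their log2 change, hApoF minus GFP, lay below 0 in 44 of 57, with a median of -0.08, and among the 24 with a mean of 8 or more in 21, with a median of -0.10. They can detect the same transcripts as the members' probe sets and are not independent of them.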
